A study of Mus musculus with 24 samples.

Results

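Hippocampal RNA of 3 female Egr1cKO mice was compared with that of the 9 other females of the series, 3 from each of 3 control genotypes, out of 24 mice in all. The study asked what the loss of Egr1 from the neural lineage does to behavior and to hippocampal gene expression in each sex, with mRNA sequenced from 3 females and 3 males of each genotype. The female Egr1cKO mice (genotype FF (+)) had the floxed Egr1 allele, flanked by loxP sites so that Cre can remove it, from the C57BL/6N strain Egr1_tm1a, and carried the Nestin-Cre transgene B6.Cg-Tg(Nes-Cre)1Kln/J, in which Cre recombinase is driven by the Nestin promoter, active in neural precursors. Floxed mice (FF (-)) had the floxed allele without Cre, Cre mice (wt (+)) had the transgene with intact Egr1, and wild type mice (wt (-)) had neither. All were adults with no stated treatment, and their exact age is not given in the sources used here. The 12 male mice entered no test and are described only at the end.

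EGR1 is a zinc finger transcription factor whose gene is switched on within minutes by neuronal activity, and it is widely used as a marker of recently active neurons. It binds a short GC-rich sequence and can raise or lower transcription, with the NAB proteins as corepressors that its own activity induces. In the hippocampus it is best known for its part in lasting synaptic potentiation and in the storage of memories. Cre from the Nestin promoter acts in the progenitors of neurons, astrocytes and oligodendrocytes, whereas microglia and most endothelial cells come from other lineages.

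The totals of counted reads ran from 18025168 to 27677816 per female, and 1 read in the shallowest library was worth 0.0555 CPM (the reads of a gene scaled to a common library size), the unit of all levels below. Genes listed for hippocampal subfield neurons summed to between 6378 and 10168 CPM in every female, whereas the 9 listed pituitary and islet hormone genes in the table summed to 1.32 to 3.88 CPM with Fshb and Ppy at 0, although the labels give the cell type as endocrine. The listed choroid plexus genes summed to 2887 CPM in Cre replicate 1, against at most 214 CPM in any Egr1cKO mouse. The mouse numbers in the labels form 2 separate ranges, 1 for floxed and Egr1cKO mice and 1 for wild type and Cre mice. Egr1cKO mice are therefore in another range than Cre and wild type mice, the effects of genotype and range cannot be told apart there, and only the comparison with floxed mice lies within 1 range. Nothing states that the mice came from separate litters, so p-values measure the spread between these mice.

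Egr1 itself (ENSMUSG00000038418, chromosome 18, 34859823 to 34864984, + strand, GRCm38) was at 10.2, 9.50 and 8.54 CPM in the 3 Egr1cKO females. In the 9 controls its lowest, median and highest levels were 47.4, 98.9 and 146 CPM. Every Egr1cKO mouse was thus far below every control, and the level that remained was 9.51% of that in controls. The log2 fold change (log2FC) was −3.39 (standard error 0.288, edgeR adjusted p = 1.62e-05). Against floxed, Cre and wild type mice it was −3.38, −3.24 and −3.54. In whole tissue, fewer cells of a type and less RNA per cell cannot be told apart, and the counts do not show which cells held the remaining transcripts. Among the 141 tested protein-coding genes within 5 Mb of Egr1 none was called, while 0.795% of all genes tested were. Their median log2FC was 0.14, against 0.0038 over all protein-coding genes tested. A log2FC above 0 was found for 66.0% of them, against 50.8%.

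Beyond Egr1, the changes were many, small and close to the threshold. A gene was called when its fold change (FC) was at least 1.2 and its adjusted p from edgeR's quasi-likelihood test at most 0.05. Of 18870 genes tested, 150 were called (0.795%), 66 higher and 84 lower in Egr1cKO females, and 3335 had an unadjusted p under 0.05. Of 14951 protein-coding genes, 62 rose (0.415%) and 58 fell (0.388%). The median size of a rise was 0.44 on the log2 scale and that of a fall was −0.55, and the adjusted p of the rises ran only from 0.0214 to 0.0483. In 119 of the 120 genes all 3 Egr1cKO values lay outside the range of the 9 controls, as they did in 6.51% of all protein-coding genes tested, but the genes were chosen on this same contrast.

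The number of called genes depended on single mice. Without any 1 of the Egr1cKO mice, 3 genes were called, and they were Egr1, Muc3a and Zswim6 each time. Without floxed replicate 2 or 3, Cre replicate 2 or 3, or wild type replicate 1, the count fell from 150 to between 18 and 48, and without floxed replicate 1, Cre replicate 1 or wild type replicate 2 it rose to between 289 and 359. DESeq2 called 670 genes, among them all 150. All 120 protein-coding genes kept their direction over 22 alternative fits, and the median gene was called in 11 of them. Since the groups did not overlap in 119 of the 120, leaving out 1 mouse could hardly turn a direction. The alternative without a fold change minimum reused the main fit, so every gene was called in it. The kept direction is therefore a description of how the genes were chosen.

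**Figure D1:**
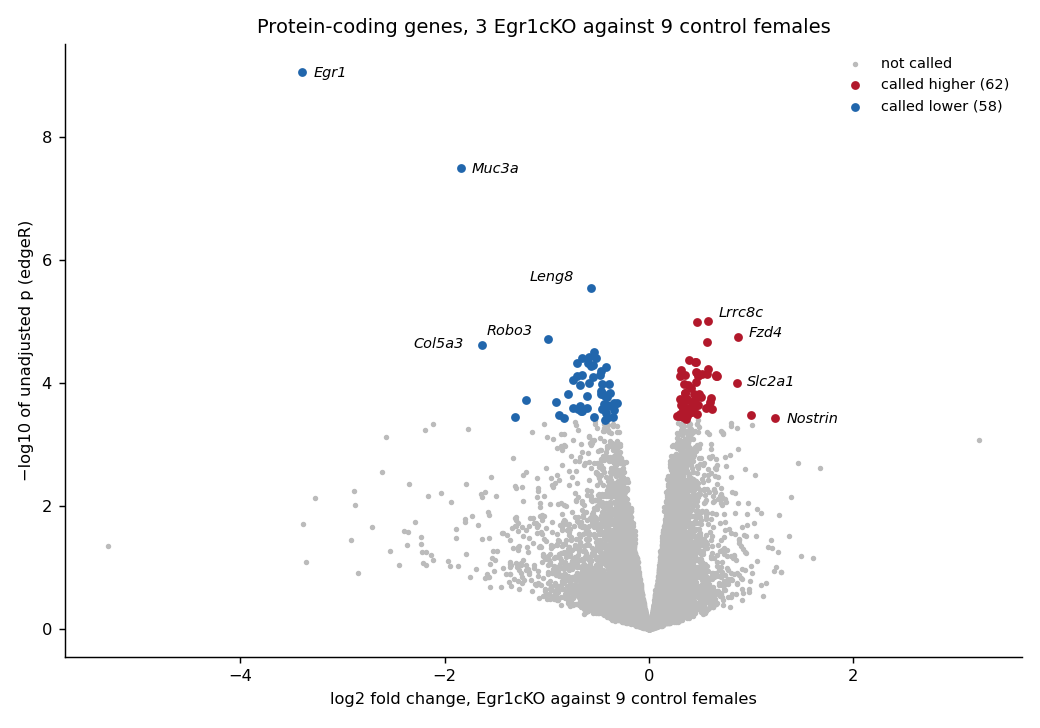
Each point is 1 protein-coding gene. The x axis is the log2FC of 3 Egr1cKO against 9 control females and the y axis −log10 of the unadjusted p from edgeR, with 62 genes called higher in red and 58 called lower in blue. Egr1 and Muc3a stand apart at log2FCs of −3.39 and −1.84, and the other called genes lie near the edge of the uncalled ones.

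Muc3a (ENSMUSG00000094840, chromosome 5, 137208813 to 137212389) encodes a membrane mucin and had the smallest p after Egr1. Its levels were 3.76, 3.32 and 3.48 CPM in Egr1cKO females, against a lowest, median and highest control of 9.25, 12.0 and 19.2 CPM. The log2FC was −1.84 (standard error 0.198, edgeR adjusted p = 0.000294). Egr1 and Muc3a were the only genes of the 120 called in all 22 alternatives.

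No other EGR gene was called. Of the 6 genes of the EGR family and its NAB corepressors, Egr1 fell and none rose. Egr2, Egr3 and Egr4, relatives that respond to the same stimuli, had log2FCs of 0.96 (standard error 0.350), 0.37 (0.0885) and 0.54 (0.170), with unadjusted p under 0.05 and edgeR adjusted p of 0.166, 0.0566 and 0.118. Nab1 and Nab2 were at 0.01 and −0.18.

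Of 32 tested genes induced by neuronal activity, 2 rose, none fell, and 10 had an unadjusted p under 0.05, all of them on the higher side. Over all genes tested, 0.795% were called, 9.09% had such a p on the higher side and 8.58% on the lower. The shares of this list and of the lists below are to be read against these. The median log2FC of the list was 0.10, against −0.02 over all genes tested. Nr4a2 (ENSMUSG00000026826, chromosome 2, 57106830 to 57124003), an orphan nuclear receptor linked to memory and to dopamine neurons, was at 114, 91.5 and 86.9 CPM in Egr1cKO females and at 47.5, 63.6 and 81.5 CPM in the lowest, median and highest control. The groups did not overlap, and the log2FC was 0.58 (standard error 0.127, edgeR adjusted p = 0.0418). Fosl2 (ENSMUSG00000029135, chromosome 5, 32135801 to 32157842), an AP-1 subunit of the Fos family, was at 97.4, 99.8 and 96.6 CPM, above controls at 42.9 to 78.2 CPM with a median of 68.7. The 3 Egr1cKO mice were almost equal, and the log2FC was 0.61 (standard error 0.129, edgeR adjusted p = 0.0418). Fosb and Homer1, both classic activity-induced genes, were just outside the threshold with log2FCs of 0.71 and 0.48 and an edgeR adjusted p of 0.0566 each.

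In the list of 18 reported neuronal EGR1 targets, 16 were tested and none was called. With 0.795% of all genes tested called, a count of none in so short a list says little. The median log2FC was 0.04, 12 of the 16 values were above 0, and 2 genes had an unadjusted p under 0.05, both higher. Cdk5r1, which encodes the p35 activator of the neuronal kinase CDK5, came nearest with a log2FC of 0.21 (standard error 0.0579, edgeR adjusted p = 0.0829). Its Egr1cKO levels of 326, 317 and 325 CPM lay above all 9 controls (264 to 302 CPM).

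Of 40 tested genes of brain endothelial cells and the blood-brain barrier, 2 were called, both higher, 12 had an unadjusted p under 0.05, all higher, and 35 had a log2FC above 0, with a median of 0.26. The summed level of the list was 1039 to 1084 CPM in Egr1cKO females and 663 to 1025 CPM in controls. Nostrin (ENSMUSG00000034738, chromosome 2, 69135800 to 69189330), which binds and relocates endothelial nitric oxide synthase, was at 4.52, 3.79 and 7.48 CPM in Egr1cKO females against 1.06, 2.09 and 3.48 CPM in the lowest, median and highest control. The ranges did not overlap, but 1 Egr1cKO mouse was well above the other two, and the lowest of them was close to the highest control. Its log2FC was 1.24 (standard error 0.282, edgeR adjusted p = 0.0477), the largest rise among protein-coding genes called, and it was called in 9 of 22 alternatives. Slc2a1 (ENSMUSG00000028645, chromosome 4, 119108711 to 119137983), the glucose transporter of the blood-brain barrier, was at 115, 104 and 82.1 CPM against 38.2, 55.3 and 77.8 CPM, with a log2FC of 0.86 (standard error 0.171, edgeR adjusted p = 0.0350). The Slc2a1 controls were not alike, since the 3 floxed mice (68.2 to 77.8 CPM) were the highest. Of 12 tested pericyte and smooth muscle genes none was called, and their median log2FC was −0.0033.

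Among 78 tested Wnt ligands, receptors and regulators, 1 rose and 1 fell, and 20 had an unadjusted p under 0.05, 16 of them higher and 4 lower. Fzd4 (ENSMUSG00000049791, chromosome 7, 89404355 to 89413134), a Frizzled receptor for Wnt ligands and for norrin that is needed for retinal and brain vessels, was at 26.7, 33.1 and 25.6 CPM. Its controls were at 11.6, 14.6 and 22.9 CPM (lowest, median and highest), all below the Egr1cKO mice, and the log2FC was 0.87 (standard error 0.149, edgeR adjusted p = 0.0297). Celsr3 (ENSMUSG00000023473, chromosome 9, 108826320 to 108852969), an atypical cadherin of the planar polarity pathway that guides axon tracts, fell from 170 to 225 CPM in controls to 131, 143 and 158 CPM, a log2FC of −0.47 (standard error 0.0908, edgeR adjusted p = 0.0329). Tle2, a Groucho corepressor that is not on this list and was picked after its value was seen, fell by 0.60 on the log2 scale.

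Of 75 tested axon guidance genes, 2 rose and 1 fell. An unadjusted p under 0.05 was found for 24, 20 higher and 4 lower, and 51 had a log2FC above 0, with a median of 0.15. Slit3 (ENSMUSG00000056427, chromosome 11, 35121224 to 35708507), a secreted ligand of Robo receptors, was at 109, 115 and 109 CPM in Egr1cKO females against 56.6, 74.6 and 91.7 CPM in controls, a log2FC of 0.56 (standard error 0.122, edgeR adjusted p = 0.0418). Robo3 (ENSMUSG00000032128, chromosome 9, 37415669 to 37433246), the divergent Robo receptor that lets commissural axons cross the midline, was at 23.0, 18.8 and 24.7 CPM against 33.8, 40.6 and 69.7 CPM. It fell by 0.99 on the log2 scale (standard error 0.170, edgeR adjusted p = 0.0297), and the highest control, wild type replicate 2, stood apart from the other 8. The semaphorin receptor Plxnc1 rose by a log2FC of 0.46 (standard error 0.0862, edgeR adjusted p = 0.0329), with Egr1cKO levels of 68.8, 74.0 and 78.1 CPM above controls at 45.7 to 62.0 CPM. Among adhesion genes outside this list, Chl1, Cdh2 and Tenm4 rose by log2FCs of 0.37, 0.34 and 0.43.

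Of 31 tested genes of the perineuronal net and proteoglycan matrix, 2 rose and none fell, with a median log2FC of 0.19. Of 41 tested collagens, 3 fell and none rose, with a median of −0.21. Itih5 (ENSMUSG00000025780, chromosome 2, 10153571 to 10256529), of the family of inter-alpha-trypsin inhibitor heavy chains that bind hyaluronan, was at 42.3, 43.3 and 41.4 CPM in Egr1cKO females. All 9 controls were lower, at 19.7, 26.5 and 35.4 CPM for the lowest, median and highest, and the log2FC was 0.66 (standard error 0.129, edgeR adjusted p = 0.0329). Hapln1 (ENSMUSG00000021613, chromosome 13, 89539796 to 89611652), the link protein that fastens proteoglycans to hyaluronan in perineuronal nets, was at 41.8, 43.5 and 44.6 CPM against 28.2, 32.0 and 38.8 CPM, a log2FC of 0.41 (standard error 0.0837, edgeR adjusted p = 0.0383).

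The collagens that fell were expressed at low levels. Col5a3 (ENSMUSG00000004098, chromosome 9, 20770050 to 20815067), a chain of fibrillar type V collagen, was at 1.75, 1.17 and 1.06 CPM in Egr1cKO females against 2.83, 3.81 and 6.24 CPM in controls. Its log2FC was −1.63 (standard error 0.287, edgeR adjusted p = 0.0319), with no overlap. Col22a1, a collagen of tissue junctions, was at 1.86, 0.749 and 1.53 CPM against 2.02 to 4.75 CPM, a narrow gap, with a log2FC of −1.32 and an adjusted p of 0.0469. Col20a1, at 4.97, 6.23 and 5.65 CPM against 7.48 to 14.3 CPM, had a log2FC of −0.88 and an adjusted p of 0.0457. Bmp1, which encodes a protease that trims procollagens, fell by 0.65 on the log2 scale from a control median of 89.6 CPM.

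**Figure D2:**
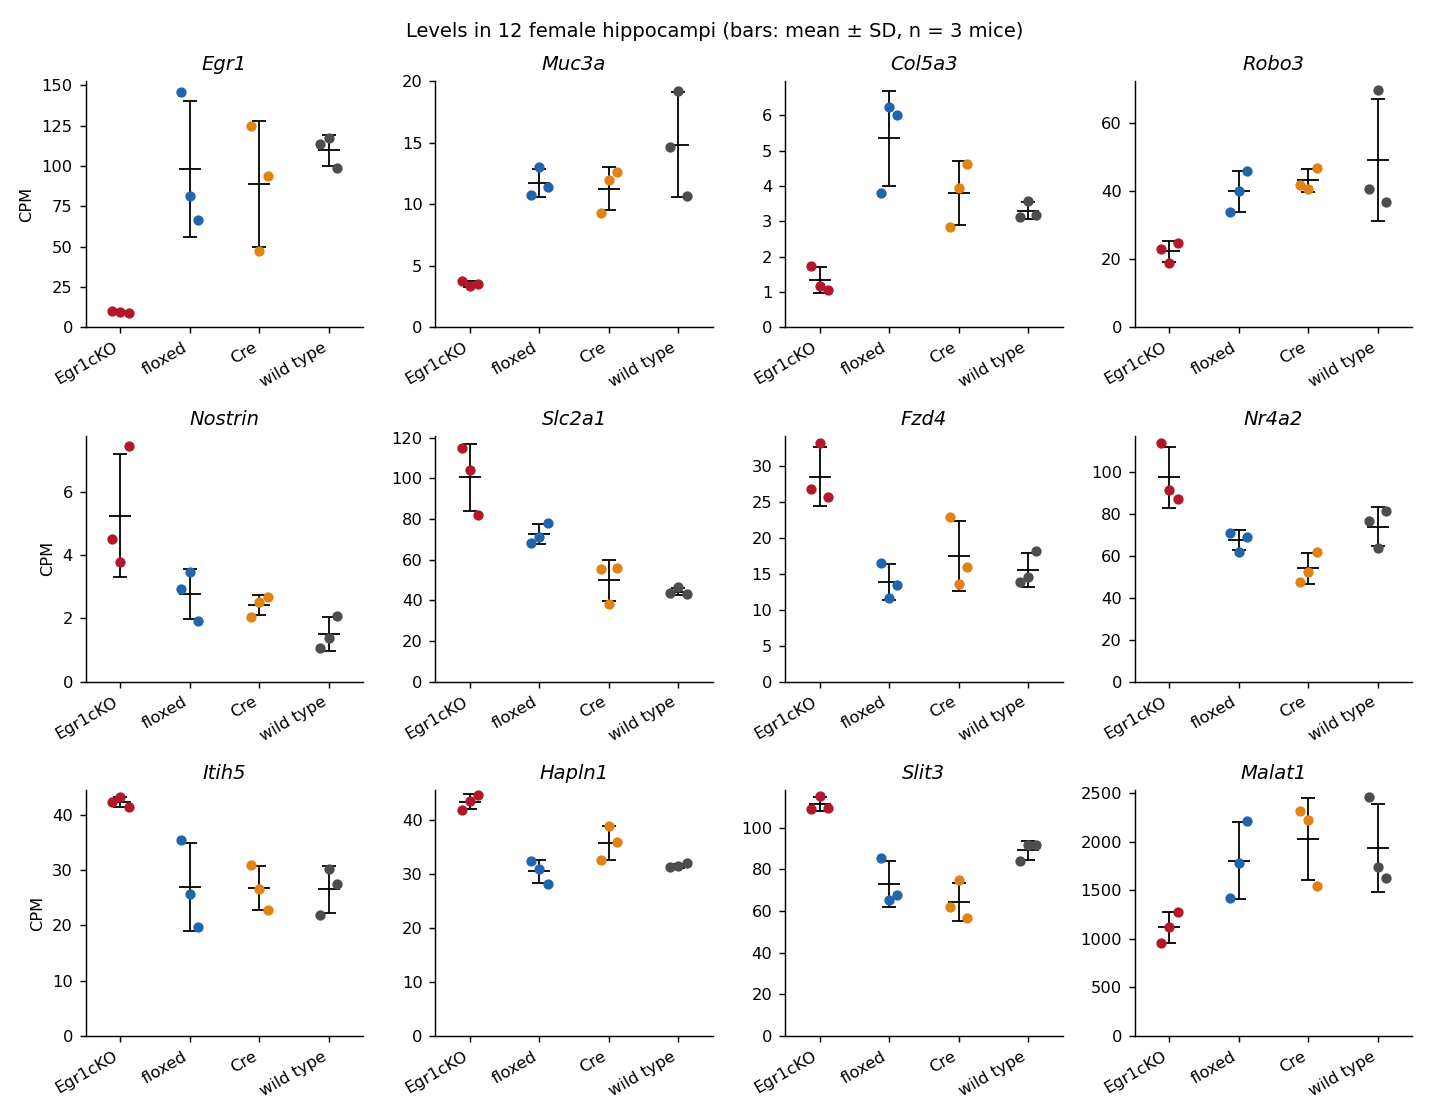
Each point is 1 female, the y axes are CPM from 0, and the bars are the mean and SD of 3 mice per genotype. In all 12 genes the 3 Egr1cKO mice lie outside the 9 controls, with Egr1, Muc3a, Col5a3, Robo3 and Malat1 lower and the others higher. The 12 were picked among called genes, so this is no separate result. Of all protein-coding genes tested, 6.51% lay outside in this way.

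The remaining large rises included receptors and signaling enzymes. Sstr4, a somatostatin receptor that is abundant in the hippocampus, was at 41.2, 36.7 and 37.8 CPM against 18.8, 23.2 and 32.0 CPM in the lowest, median and highest control (log2FC 0.66, edgeR adjusted p = 0.0329). Irs2, the adaptor that carries insulin and IGF1 signals, was at 157, 144 and 137 CPM against 69.2, 98.9 and 116 CPM (0.56, 0.0329). Sik2, a salt-inducible kinase that restrains CREB-dependent transcription, was at 28.1, 25.4 and 29.4 CPM against 14.2, 17.6 and 23.7 CPM (0.60, 0.0418). For each of the 3 genes, the highest control was a floxed or wild type mouse and still below every Egr1cKO mouse. Prex2, a Rac exchange factor, had a log2FC of 0.62, and the volume-regulated anion channel subunit Lrrc8c one of 0.58. Aff1, a subunit of the super elongation complex, and Usp53, of the ubiquitin protease family, were at 0.58 and 0.56. Galnt15, an enzyme that starts mucin-type sugar chains, was at 5.32, 4.07 and 4.93 CPM against 1.42 to 3.21 CPM, a log2FC of 1.00 (edgeR adjusted p = 0.0464), and Map3k19, a kinase gene, had a log2FC of 0.66.

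Some smaller rises in genes with known neuronal roles follow, picked after their values were seen except Nrxn2, with no list or count behind them. Bsn, the presynaptic scaffold Bassoon, was at 772, 832 and 778 CPM against 480, 527 and 696 CPM in the lowest, median and highest control (log2FC 0.52, edgeR adjusted p = 0.0329). Map1b, a microtubule-associated protein of growing axons, was at 1522, 1634 and 1653 CPM against 993, 1096 and 1398 CPM (0.46, 0.0350). Both were above all controls, as were the vesicle GTPase gene Rab3c (log2FC 0.37), the postsynaptic scaffold gene Lrrc7 (0.50) and the local translation factor Cpeb3 (0.44). The growth kinase gene Mtor rose by 0.36, the receptor tyrosine kinase gene Kit by 0.45, and the adenylyl cyclase genes Adcy3 and Adcy5 by 0.43 and 0.35. Among channels and pumps, Kcnn2, Cacna1i and the calcium pump gene Atp2a2 rose by 0.37, 0.38 and 0.31. Of 20 neurexins, neuroligins and relatives, Nrxn2 alone was called, with Egr1cKO levels of 422, 391 and 363 CPM against 293 to 355 CPM and a log2FC of 0.29 (edgeR adjusted p = 0.0466), and the list had a median of 0.21 with 18 of 20 values above 0. Levels here are not scaled to gene length, so they are compared between mice and not between genes.

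Some falls in genes of nuclear proteins follow, picked after their values were seen except Pold1 and Polq, with no list or count behind them. Pold1, the catalytic subunit of DNA polymerase delta, was at 5.39, 4.40 and 5.06 CPM in Egr1cKO females against 6.47, 8.51 and 11.1 CPM in the lowest, median and highest control (log2FC −0.74, edgeR adjusted p = 0.0418). Polq, a polymerase that joins broken DNA ends, was at 7.06, 8.52 and 7.18 CPM against 9.55, 12.2 and 15.9 CPM (−0.70, 0.0329). In both, the groups did not overlap. The telomere helicase gene Rtel1, the Ku subunit gene Xrcc6 and the telomere maintenance gene Telo2 were at log2FCs of −0.61, −0.43 and −0.45. Among chromatin regulators, the deacetylases Hdac7 and Hdac10 and the histone methyltransferase Dot1l fell by 0.57, 0.65 and 0.48. The splicing genes Snrnp70, Srsf5 and Clasrp fell by 0.37, 0.31 and 0.43, and Akap8 and Akap8l, whose proteins bind the nuclear matrix, by 0.38 and 0.54. Leng8 had the smallest adjusted p after Egr1 and Muc3a among the falls, with 181, 210 and 213 CPM against 262, 287 and 343 CPM (log2FC −0.56, edgeR adjusted p = 0.0135).

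Syne4, a nesprin that ties the nuclear envelope to kinesin, was at 2.05, 1.17 and 2.63 CPM against 3.01, 4.79 and 5.56 CPM, a log2FC of −1.21 (edgeR adjusted p = 0.0418). Crocc, the rootletin gene of the ciliary rootlet, was at 43.3, 45.8 and 44.9 CPM against 55.8, 77.6 and 95.0 CPM, a log2FC of −0.75 (0.0350). In both, every Egr1cKO mouse was below every control. The cilium genes Nphp4 and Evc, picked after their values were seen, fell by 0.35 and 0.47. C1qtnf12, a secreted insulin-sensitizing factor, was at 4.94, 5.24 and 4.89 CPM against 6.69 to 14.0 CPM (log2FC −0.83, edgeR adjusted p = 0.0477), and its highest control, Cre replicate 1, stood apart. Mroh7, Gm49601, Gm9821 and Gm35339 fell by 0.70, 0.91, 0.79 and 0.70.

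The 3 control genotypes were then taken apart. The 3 contrasts share the same Egr1cKO mice, and the 120 genes were chosen on the pooled contrast of the same animals, so the counts below are a description. Over all 18870 genes, edgeR called 3 genes against floxed mice (0.0159%), 295 against Cre mice (1.56%) and 6 against wild type mice (0.0318%). Of the 120 genes, 3 were called against floxed mice (Egr1, Muc3a and Col5a3), 74 against Cre mice (45 rises and 29 falls) and 3 against wild type mice (Egr1, Muc3a and Slc2a1). No gene turned its direction against any control. All 120 had an unadjusted p under 0.05 in the same direction against floxed mice (17.9% of all protein-coding genes had such a p in either direction), against Cre mice (20.6%) and against wild type mice (8.88%). The median log2FC of the rises was 0.46, 0.51 and 0.36 against floxed, Cre and wild type mice, and that of the falls was −0.54, −0.54 and −0.48. Egr1 and Muc3a alone passed the threshold against each of the 3, 70 genes passed it against 1 control genotype, and 46 against none.

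Individual genes differed in which control lay nearest. Nostrin was at 2.78 ± 0.798 CPM in floxed, 2.41 ± 0.316 CPM in Cre and 1.51 ± 0.528 CPM in wild type mice (mean ± SD, n = 3 each), and its log2FCs of 0.91, 1.12 and 1.80 had edgeR adjusted p of 0.162, 0.0779 and 0.0791. Slc2a1 had log2FCs of 0.47, 1.01 and 1.18 with adjusted p of 0.105, 0.00585 and 0.00135. For both, the floxed mice were nearest to the Egr1cKO mice. For Nr4a2 the wild type mice were nearest, with log2FCs of 0.53, 0.85 and 0.40 (edgeR adjusted p 0.0767, 0.00962 and 0.315), and likewise for Slit3, with 0.61, 0.79 and 0.32 (0.0667, 0.00880 and 0.411). Itih5, at 0.65, 0.66 and 0.67, had nearly the same log2FC against each control. Without floxed replicate 1, the count against floxed mice rose from 3 to 1558 genes.

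**Figure D3:**
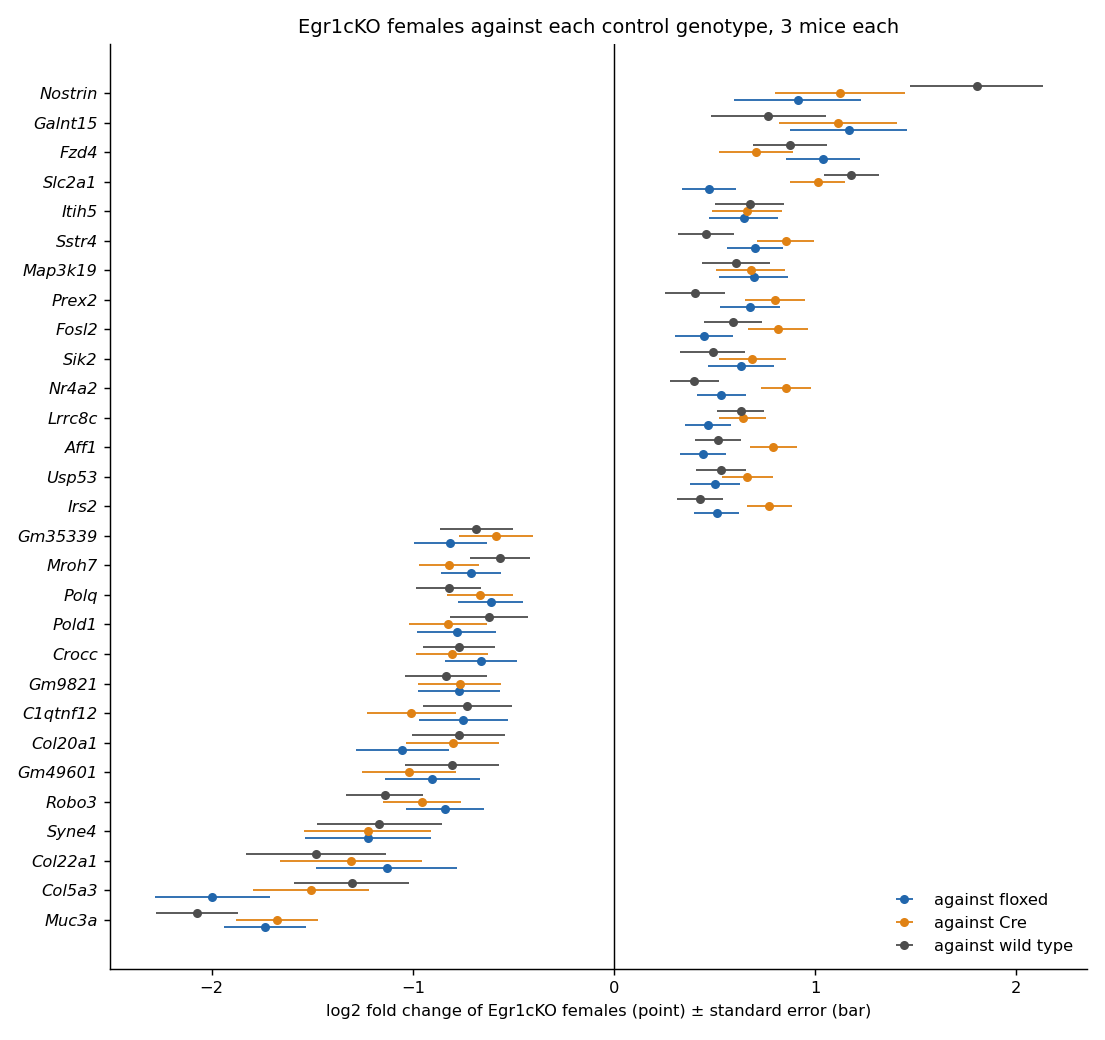
Each row is 1 of the 15 largest rises or of the 14 largest falls after Egr1 among called protein-coding genes whose groups did not overlap. Points are the log2FC of the 3 Egr1cKO females against 3 floxed (blue), Cre (orange) or wild type (gray) females and bars 1 standard error. All points lie on the side of the pooled change, which follows from this choice of genes. The floxed contrast is the smallest of the 3 for the rises Nostrin, Slc2a1, Itih5, Fosl2, Lrrc8c, Aff1 and Usp53. Among the falls it is the smallest for Col22a1, Robo3, Crocc and Polq.

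The design also allowed a test of whether Cre had another effect with the floxed allele than with intact Egr1, as the interaction of the floxed allele with Nestin-Cre in the same 12 females. It was called for 354 of 18870 genes (1.88%) and for 37 of the 120. Since the 120 were chosen on the Egr1cKO mice that also enter the interaction, nothing is read from the second count. For Egr1 it was −3.08 on the log2 scale (standard error 0.414, edgeR adjusted p = 0.0148). Nr4a2 (0.99), Slit3 (1.08), Sstr4 (1.10), Prex2 (1.07), Irs2 (0.86) and Aff1 (0.72) were called in the positive direction and Col5a3 (−2.20), Muc3a (−1.34), Mroh7 (−0.97) and Neat1 (−1.24) in the negative one. Nostrin was not called (0.23, adjusted p = 0.833), nor was Slc2a1 (0.30, 0.414). The count fell to 0 without Egr1cKO replicate 2, where edgeR still gave 3066 genes an unadjusted p under 0.05, and rose to 1831 without floxed replicate 1.

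Mapk11, Cntnap5b, Ids and Ptpn14, which the study's text names for the loss of Egr1, were not called by edgeR against the 9 female controls. The study found them with DESeq2 and with a mixed model, in mice of both sexes and so in more mice than here. Over the 22 alternative fits, Mapk11 was called in 6, Cntnap5b in 8, Ids in 1 and Ptpn14 in 0. Fosl2, Neat1, Col5a3 and Slc2a1, which the study names in other comparisons, were called. Mapk11, a p38 kinase, was at 18.3, 18.8 and 15.5 CPM against 21.8 to 38.3 CPM (log2FC −0.66, edgeR adjusted p = 0.0647). Cntnap5b, a neurexin relative, was at 17.9, 18.5 and 17.0 CPM against 7.52 to 15.1 CPM (0.72, 0.0579), and Ids, the lysosomal iduronate sulfatase, at 575, 657 and 611 CPM against 435 to 566 CPM (0.30, 0.0745). In these 3 genes the groups did not overlap although the threshold was missed. Over all protein-coding genes tested, the groups did not overlap in 6.51%. The study picked the genes from mice that include these same females, so the lack of overlap is no separate result. Mapk11 was called against Cre mice (edgeR adjusted p = 0.0359) and for the interaction (−1.20, 0.0321), and so was Cntnap5b (0.0228 against Cre mice, and 1.26 with 0.0375 for the interaction). The phosphatase gene Ptpn14 overlapped, at 19.5, 27.5 and 27.5 CPM against 14.4 to 23.4 CPM (0.46, 0.111).

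The lists for other cell types held no called gene. Of 24 astrocyte genes, 17 had a log2FC above 0 and the median was 0.12, and the water channel gene Aqp4 came nearest to the threshold (0.58, edgeR adjusted p = 0.0839). Of 20 oligodendrocyte genes, 2 were above 0 and the median was −0.24, with Mobp at −0.40 (adjusted p = 0.144). An unadjusted p under 0.05 was found for 9 of the 20, 8 lower and 1 higher. The oligodendrocyte list summed to 4354 to 5503 CPM in Egr1cKO females and 4910 to 7548 CPM in controls. Microglia (18 genes, median 0.07), complement (17, 0.03), meningeal fibroblasts (16, 0.19), blood cells (7, −0.72) and choroid plexus (14, −1.40) were likewise without a call. The blood list was at 34.0 to 50.9 CPM in Egr1cKO females and 36.7 to 84.1 CPM in controls, and the choroid plexus list includes the high sum of Cre replicate 1 given above. Hippocampal subfield neurons (26 genes, median 0.14), interneurons (16, −0.04) and adult neurogenesis (20, −0.02) held none either, and nor did genes of the thalamus (14, 0.09), striatum (12, 0.16) and hypothalamus (7, −0.41) or the 2 hormone genes tested (0.19). Besides the oligodendrocyte genes, 5 astrocyte genes, all higher, and 4 blood genes, all lower, had an unadjusted p under 0.05. Each other list of this paragraph had at most 3 such genes.

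Functional lists without a called gene were those of glutamate receptors (34 genes, median log2FC 0.12), GABA receptors and the inhibitory synapse (21, 0.15), the p38 and MAPK cascade (29, 0.06), the circadian clock (19, 0.15), heat shock proteins (18, 0.10), interferon-stimulated genes (21, −0.09) and cholesterol synthesis (24, 0.04). Glucocorticoid-responsive genes had the highest median of these, 0.29 over 22 genes, with 8 at an unadjusted p under 0.05, all higher, and Klf9 nearest to the threshold (0.35, edgeR adjusted p = 0.0625). Of the other lists, that of GABA receptors had 9 genes at such a p, 8 higher and 1 lower. All higher were 8 glutamate receptor, 6 clock, 5 heat shock and 2 cholesterol genes. The p38 and MAPK list had 4 higher and 4 lower, and the interferon list had 1, which was lower. Genes with known differences between the C57BL/6N and C57BL/6J substrains had a median of 0.19 over 5 tested genes, with Cyfip2 at 0.30 (adjusted p = 0.0683).

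Of 10 abundant nuclear long noncoding RNAs, 3 fell, 6 had an unadjusted p under 0.05, and none had a log2FC above 0. Malat1 (ENSMUSG00000092341, chromosome 19, 5795690 to 5802672), a nuclear speckle RNA, was at 956, 1121 and 1281 CPM against 1426, 1780 and 2459 CPM in the lowest, median and highest control. Its log2FC was −0.78 (standard error 0.152, edgeR adjusted p = 0.0329), with no overlap. Neat1, the RNA core of paraspeckles, and Miat, another nuclear RNA, fell by 0.83 (adjusted p = 0.0410) and 0.35 (0.0329). The TEC class holds transcribed stretches whose status as genes awaits experimental proof, and its 930 tested genes had a median log2FC of −0.51, with 1 called higher and 9 lower. For lincRNAs the median was −0.17 (1 higher, 9 lower of 736) and for antisense genes −0.28 (1 higher, 4 lower of 877), whereas over all protein-coding genes it was 0.0038. In these non-stranded libraries, antisense and overlapping genes cannot be separated from their neighbors.

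As a share of all counted reads, the listed nuclear RNAs took 0.529%, 0.678% and 0.681% in Egr1cKO females and 0.760% to 1.09% in controls. LincRNAs, a class that holds Malat1, Neat1 and Miat and so is not independent of that list, took 0.893%, 1.04% and 1.05% against 1.13% to 1.43%. In both, no control was as low as any Egr1cKO mouse, and the exact two-sided permutation test over the 220 assignments of mice gave the smallest p it can give, 0.00455 (0.0114 adjusted over 5 shares). The list was chosen with earlier results of these data known, and the test takes no account of the ranges of mouse numbers. TEC genes took 0.130% ± 0.0159 (SD, n = 3) against 0.172% ± 0.0231 (n = 9, exact permutation p = 0.0182, adjusted 0.0303), ribosomal protein genes 1.02% against 1.19% (exact p = 0.0273, adjusted 0.0341) and mitochondrial genes 4.47% against 5.04% (exact p = 0.0591). Beside these shares, the changed genes differed in length. The rises had a median genomic span of 94.9 kb and the falls one of 17.6 kb, against 25.1 kb over all protein-coding genes tested. With all protein-coding genes ordered by span and cut into 5 equal bins, the median log2FC went from −0.08 in the shortest bin through −0.04, −0.01 and 0.05 to 0.13 in the longest. With the TEC level of each mouse as a covariate, chosen after seeing the data, 2 genes were called, Egr1 and Muc3a, and with the mean level of mitochondrial genes 3, these and Zswim6. All 120 kept their direction with either. The median log2FC was 0.35 for the rises and −0.51 for the falls with the TEC level (0.44 and −0.55 without), while the median standard error of the rises went from 0.0917 to 0.119. With the mitochondrial level the medians were 0.37 and −0.50, and the median standard error of the rises was 0.0918.

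**Figure D4:**
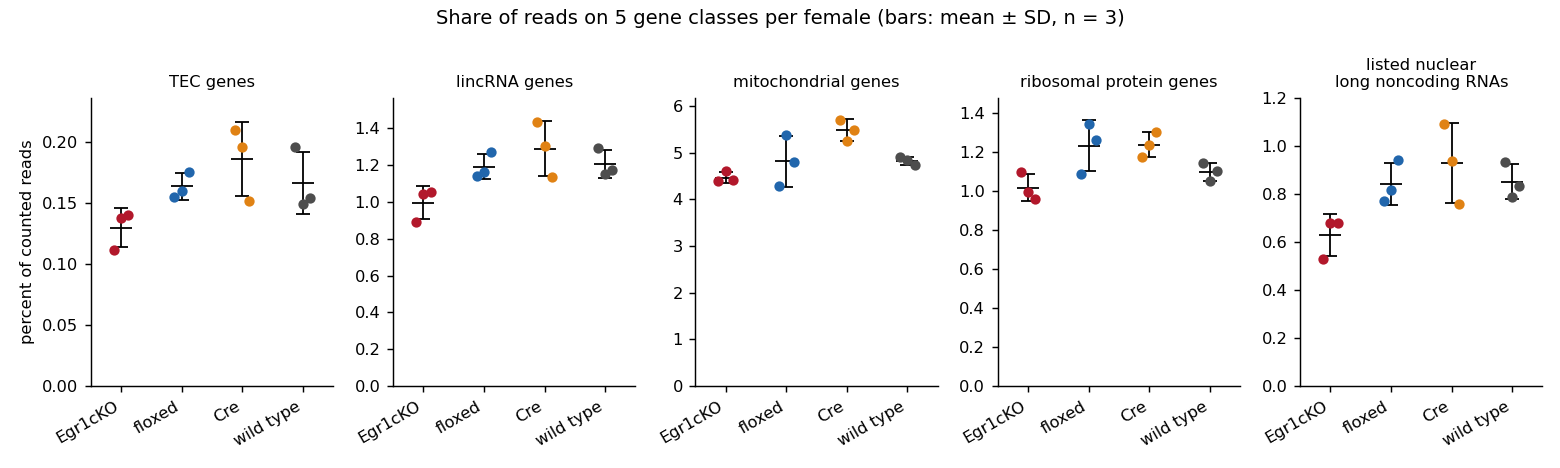
Each point is 1 female, the y axes are percent of counted reads from 0, and bars are the mean and SD of 3 mice per genotype. The Egr1cKO mice lie below all 9 controls for TEC genes, lincRNA genes and the listed nuclear RNAs, and overlap them for mitochondrial and ribosomal protein genes.

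Zswim6 was the 1 rise still called without each Egr1cKO mouse. GENCODE M21 classes it as a processed transcript, so that it is not among the 62. It lies on chromosome 13, 107724617 to 107890064. Its levels were 53.8, 52.1 and 51.8 CPM in Egr1cKO females against 33.1 to 38.8 CPM in controls, with a log2FC of 0.54 (standard error 0.0661, edgeR adjusted p = 0.00120). Against floxed, Cre and wild type mice the log2FC was 0.54, 0.53 and 0.56. The lincRNA AC160336.1, of no known function, was at 1.25, 1.36 and 1.27 CPM in the Egr1cKO females and at 0 to 0.273 CPM in controls (edgeR adjusted p = 0.0145).

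To show what the start regions of the changed genes hold, RefSeq promoters (GRCm38.p6, 250 bases before to 50 after each gene's start) were searched on both strands for GCGTGGGCG and GCGGGGGCG, forms of the sequence that EGR proteins bind. Both forms share bases with the GC box GGGCGG of SP1. Of 11661 tested protein-coding genes with a promoter in the table, 7.54% held a match. Among the rises 9 of 49 did (18.4%), namely Cmip, Dpy19l3, Fosl2, Fzd4, Neurl1b, Nuak1, Pgm2l1, Ptprg and Sik2. Among the falls 4 of 43 did (9.30%), namely Akap8, Crocc, D10Wsu102e and Tle2. A match is a description of the letters and does not show that EGR1 binds there. The stretches of the genes described above as the largest changes are given 5′ to 3′ along the gene, with the match in capitals. In Fosl2 it reads in the direction of the gene and in the others it is the reverse complement. Its last base lay 24, 71, 19 and 13 bases before the RefSeq start of Fzd4, Fosl2, Sik2 and Crocc. RefSeq starts can differ from the GENCODE coordinates given above: that of Fzd4 is at 89404366 and that of Fosl2 at 32136472, both inside the GENCODE gene, so that the Fosl2 match is also inside it.
Fzd4, chr7:89404308-89404365, + strand: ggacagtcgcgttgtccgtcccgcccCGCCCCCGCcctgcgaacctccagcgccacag
Fosl2, chr5:32136367-32136426, + strand: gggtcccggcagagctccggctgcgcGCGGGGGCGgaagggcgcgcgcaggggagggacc
Sik2, chr9:51009074-51009126, - strand: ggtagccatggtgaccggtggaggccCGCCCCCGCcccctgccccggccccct
Crocc, chr4:141060546-141060592, - strand: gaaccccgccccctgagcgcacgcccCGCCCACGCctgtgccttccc

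The male mice had no part in these tests, and the difference between the sexes was not tested here. Egr1 was at 6.53 ± 1.51 CPM in the 3 male Egr1cKO mice and 92.5 ± 27.8 CPM in the 9 male controls. Of the 120 genes, 93 had a male ratio of means on the female side, 53 of the 62 rises and 40 of the 58 falls, but the ratios were small, with medians of 0.11 and −0.05 on the log2 scale. Only Egr1, Telo2 and Hapln1 had all 3 male Egr1cKO values outside the 9 male controls in the female direction, and none did so in the other direction, while 0.629% of all protein-coding genes were outside in either direction. Hapln1 was at 39.8, 35.6 and 33.8 CPM in male Egr1cKO mice against 26.6 to 33.5 CPM. Muc3a was at 11.2 ± 2.98 CPM in male Egr1cKO mice and 12.7 ± 2.13 CPM in male controls, Nostrin at 3.17 ± 0.647 and 3.20 ± 1.00 CPM, and Slc2a1 at 62.5 ± 5.05 and 62.5 ± 13.0 CPM. These 3 genes, called in females, thus differed by less than the spread of the male mice. Fosl2 had a male log2 ratio of −0.29, opposite to the females, and AC149090.1 one of −0.96, larger in size than its female log2FC of −0.68.

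**Figure D5:**
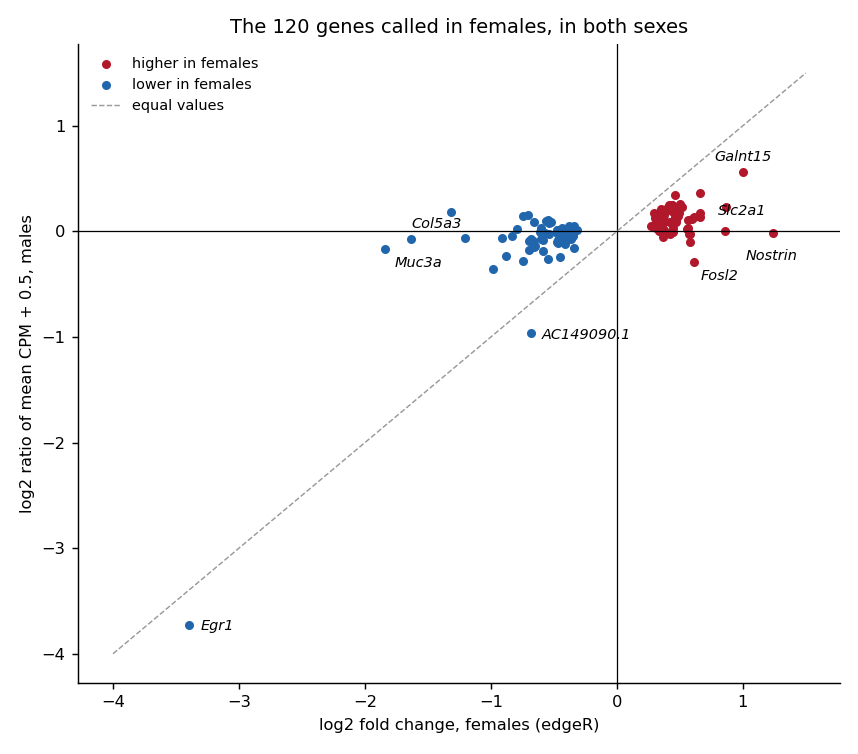
Each point is 1 of the 120 genes called in females. The x axis is the female log2FC from edgeR, the y axis the log2 ratio of the mean CPM + 0.5 of 3 male Egr1cKO and 9 male control mice, and the dashed line marks equal values. Egr1 lies near the line at −3.39 and −3.73, and most other genes lie near 0 on the male axis.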

How the data were processed

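PolyA RNA from the hippocampus was sequenced from non-stranded libraries. The authors deposited 1 table of raw counts of reads per gene, made from trimmed reads aligned to GRCm38. The submitters' processing notes name Trim Galore 3.8.2, FastQC and STAR 2.7.9, and the study's methods give other versions for Trim Galore and STAR. The annotation used for counting is not given in the sources used here. Of 36605 gene identifiers, 36493 matched GENCODE M21 (GRCm38), which supplied symbols, coordinates and gene classes.

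Counts of the 12 females were filtered with filterByExpr (minimum count 10), scaled by TMM and tested with edgeR 4.0.16 (quasi-likelihood, R 4.3.3), with Benjamini-Hochberg adjustment over all 18870 genes. Egr1cKO mice were compared with the 9 controls in a fit of 2 groups, and with each control in a fit of 4 groups. Genes were called at an adjusted p up to 0.05 with an FC of 1.2 or more. DESeq2 1.42.0, limma 3.58.1 (voom), other filters and scalings, a replicate block and each mouse left out were alternatives. The scripts were tested on simulated data. Read shares were compared by exact permutation. Totals of 18025168 to 27677816 reads make genes of a few CPM imprecise, and intervals of counting error are not given since mice are the replicates.

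The members and lists were chosen with earlier results of these data known. The genes named by rule were Egr1, Nostrin, 4 genes of the study's text, the 15 strongest increases and the 15 strongest decreases of called protein-coding genes whose groups did not overlap, up to 4 called members of each list, and 1 example of a list without any. Genes named otherwise were chosen after their values were seen.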

Additional observations from a re-analysis of the deposited data

Results flagged for a closer look

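The interaction asks whether the effect of Nestin-Cre differed between mice with the floxed allele and mice with intact Egr1. By edgeR's quasi-likelihood test in the 12 females it was called for Egr1 and 17 others of the 67 genes named by the rule. Over all genes tested it was called for 1.88%. Most of the 67 were named for changes in the same Egr1cKO mice that enter the interaction, so nothing is read from the count. The interaction was −3.08 on the log2 scale for Egr1, 1.26 for Cntnap5b, 1.10 for Sstr4, 1.08 for Slit3, 1.07 for Prex2, 0.99 for Nr4a2, 0.86 for Irs2, 0.72 for Aff1, 0.72 for Ccnd2, 0.70 for Grin2b and 0.57 each for Klf9 and Cyfip2. It was −2.20 for Col5a3, −1.34 for Muc3a, −1.24 for Neat1, −1.20 for Mapk11, −0.97 for Mroh7 and −0.88 for Mobp. These calls depended on single mice, as the counts with each mouse left out show.

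In 5 of the 67 genes named by the rule a single control mouse stood far from the other 8. Lrrc8c was at 41.0 CPM in floxed replicate 1, Robo3 at 69.7 CPM in wild type replicate 2 and C1qtnf12 at 14.0 CPM, Calml4 at 2.44 CPM and Igf2 at 2.11 CPM in Cre replicate 1. The test was Dixon's gap ratio at its usual level, which chance passes in about 1 in 20 groups, so nothing is read from the count.

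In the male mice, which entered no test, Egr1 had a log2 ratio of mean levels of −3.73 and Hapln1 one of 0.25, with all 3 Egr1cKO males outside the range of the 9 male controls in both genes.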

How the results depend on the processing

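All 120 protein-coding genes kept their direction in the 22 alternative fits of the comparison with 9 controls, which the choice of the genes made likely. The counts of called genes moved widely. From 150, the count went to 670 with DESeq2, 286 without a filter on low counts, 340 against the mean of the 3 control genotypes and 17 with a replicate block, and, in fits chosen after seeing the data, to 2 with the TEC covariate and 3 with the mitochondrial covariate. DESeq2 size factors gave 151, a mean of at least 1 CPM 163, no fold change minimum 150 and limma-voom 131. Against floxed mice the count went from 3 to 50 with only the 6 mice, 679 with DESeq2, 979 without the filter and 2 with the replicate block. Against Cre mice it went from 295 to 310, 990, 1353 and 58, and against wild type mice from 6 to 125, 85, 277 and 4 under the same alternatives. The interaction went from 354 to 1161 with DESeq2, 1335 without the filter and 19 with the replicate block. The cause was not tested.

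With each mouse left out in turn, the counts ran from 3 to 359 against 9 controls, 2 to 1558 against floxed mice, 4 to 349 against Cre mice, 3 to 4 against wild type mice and 0 to 1831 for the interaction. Against Cre mice the count was 4, 9 and 22 without Egr1cKO replicate 1, 2 and 3, and 185 and 84 without Cre replicate 2 and 3. The interaction count was 10, 0 and 1 without Egr1cKO replicate 1, 2 and 3, 6 and 1 without floxed replicate 2 and 3, 776, 207 and 19 without Cre replicate 1, 2 and 3, and 11 and 9 without wild type replicate 2 and 3. Where edgeR gave 0, 3066 genes had an unadjusted p under 0.05, and other tools were not run without that mouse.

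The replicate numbers do not pair the mice. Of 18 pairs of mice with the same number, 1 had deviations from the group means that correlated above 0.1 (range −0.146 to 0.261), as did 9 of 36 pairs with different numbers.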
